A study of Mus musculus with 6 samples.

Results

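The zinc, iron, copper and metallothionein genes are those that carry these metals across membranes, store them or sense them. They were taken by symbol: every Slc30a, Slc39a and Mt1 to Mt4 row of the count table, with Mtf1, Slc11a2, Slc40a1, Tfrc, Fth1, Ftl1, Ireb2, Atp7a and Slc31a1. This gave 37 genes of the 24197 in the table, of which 29 passed the filter on low counts and 8 did not. Polyadenylated RNA was sequenced from 3 libraries of stromal-vascular cells given a Prdm16 retrovirus and from 3 given a control (puro) retrovirus. Both groups were cells of the inguinal fat of C57BL/6 mice, kept in a standard growth medium. The labels give no age, sex or time after infection. Nor do they tie replicates to different cultures or animals. The p-values therefore reflect library-to-library spread alone, and that spread may be technical. Prdm16 is a zinc-finger regulator of brown and beige fat identity, and the puro virus serves as its control here.

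Zinc leaves the cytosol through the Slc30a (ZnT) transporters and enters it through the Slc39a (ZIP) transporters, while the metallothioneins bind the excess. The factor Mtf1 senses free zinc and switches on metallothionein genes and Slc30a1 through short metal response elements. Iron enters with transferrin through Tfrc, crosses the endosome membrane through Slc11a2, is stored in ferritin (Fth1 and Ftl1) and leaves through ferroportin (Slc40a1). The regulatory proteins Aco1 and Ireb2 bind iron-responsive elements, which are hairpins in the untranslated regions (UTRs) of several of these mRNAs. Copper enters through Slc31a1 and is pumped to the secretory pathway or out of the cell by Atp7a.

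The iron-responsive elements are shown because 4 of the iron genes below carry them, 3 ahead of the coding sequence and 1 behind it. They were found in GENCODE M21 transcripts (GRCm38) as a C, 5 bases, the loop CAGTGN with its last base not G, and 5 bases, where all 5 stem bases pair with each other, G with T included. The loop is in capitals, 6 bases flank each side, and the coordinates are those of the hairpin without the flanks. Ferritin heavy and light chain and ferroportin hold 1 match each in the 5′ UTR, and the transferrin receptor holds 4 in the 3′ UTR, of which the first and the last are printed.
Fth1, chr19:9982738-9982754, plus strand: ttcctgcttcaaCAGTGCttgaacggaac
Ftl1, chr7:45459785-45459801, minus strand: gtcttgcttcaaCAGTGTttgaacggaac
Slc40a1, chr1:45925471-45925487, minus strand: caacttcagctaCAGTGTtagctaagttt
Tfrc, chr16:32631225-32631241, plus strand: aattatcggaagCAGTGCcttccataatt
Tfrc, chr16:32631716-32631732, plus strand: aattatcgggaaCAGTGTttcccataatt
Such a match was found in a UTR of 0.814% of the tested coding genes (102 of 12535). No other of the 37 genes held one, which says only that these letters in this form are not in their annotated UTRs.

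The promoters of the classical Mtf1 targets Mt2, Mt1 and Slc30a1 are shown because all 3 genes were called higher in the Prdm16 libraries. They were thus chosen by their result. The 250 bases ahead of the annotated start are printed from RefSeq (GRCm38.p6), with the letters TGCACNC and TGCGCNC, the core of the metal response element on either strand, in capitals.
Mt2, chr8:94172368-94172617, plus strand: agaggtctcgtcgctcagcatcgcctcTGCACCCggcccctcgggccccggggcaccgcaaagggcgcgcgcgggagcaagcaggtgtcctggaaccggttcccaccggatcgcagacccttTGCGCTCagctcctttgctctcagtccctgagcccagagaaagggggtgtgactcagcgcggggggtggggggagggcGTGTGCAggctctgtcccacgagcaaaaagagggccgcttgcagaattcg
Mt1, chr8:94178839-94179088, plus strand: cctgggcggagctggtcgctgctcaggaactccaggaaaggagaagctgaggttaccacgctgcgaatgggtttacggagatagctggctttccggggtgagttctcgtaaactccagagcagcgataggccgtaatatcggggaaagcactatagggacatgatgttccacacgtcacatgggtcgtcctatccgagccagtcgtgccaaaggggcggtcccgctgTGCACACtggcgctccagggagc
Slc30a1, chr1:191906531-191906780, plus strand: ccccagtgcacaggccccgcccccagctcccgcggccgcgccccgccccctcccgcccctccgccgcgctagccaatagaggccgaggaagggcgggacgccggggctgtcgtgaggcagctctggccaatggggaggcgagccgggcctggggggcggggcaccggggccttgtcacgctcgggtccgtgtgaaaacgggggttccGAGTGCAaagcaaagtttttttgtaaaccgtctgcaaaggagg
Over the 300-base window that also takes in the first 50 bases after the RefSeq start, Mt2 held 4 matches, Mt1 3 and Slc30a1 2. The matches of Mt1 that are not printed begin at bases 3 and 21 after that start, that of Mt2 at base 5 and that of Slc30a1 at base 31. The annotations differ on the start: GENCODE M21 puts that of Mt2 at 94172664 and that of Mt1 at 94179082, within the bases printed for Mt1. The Mt2 match at base 5 lies ahead of the GENCODE start. Matches that begin at the same base were counted as 1, and overlap with other motifs was not searched. A promoter was found for 31 of the 37 genes. At least 1 match was present in 12 of 25 tested zinc, iron and copper genes with a promoter (48%) and in 40.5% of 10195 tested genes, and at least 2 in 6 of them (24%) against 13.5%. These 6 were Mt2, Mt1, Slc30a1 and Tfrc (2 matches), called higher, Slc30a4 (3 matches), called lower, and Atp7a (2 matches), which did not pass. A match is a run of letters, not a measured binding site.

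Library totals ranged from 28169059 to 34349660 counts in the Prdm16 group and from 31866630 to 35798201 in the puro group. Prdm16 itself had 72525 to 98437 counts in Prdm16 libraries and 14 to 25 in puro libraries. The stromal marker Pdgfra was at 188 ± 6.63 and 199 ± 9.57 CPM (SD, n = 3), where CPM is the count relative to library size after TMM scaling, while the progenitor marker Dpp4 had 6 and 13 counts over the Prdm16 and puro groups. All 9 progenitor and fibroblast markers summed to 1480 to 1580 CPM in Prdm16 libraries and 2700 to 3170 CPM in puro libraries, and of 8 tested 2 rose, 5 fell and 1, Pdgfra, did not pass. Those that fell included Cd34 (log2 fold change −4.10 ± 0.13), Col1a1 (−3.55 ± 0.13) and Pdgfrb (−1.50 ± 0.03), and Ly6a rose (1.39 ± 0.04). Lum, which also rose, had 8 counts over the puro group, and Thy1, which fell, had 7 over the Prdm16 group. Each passed the filter on low counts only through its higher group, so its direction was set by the filter. Epithelial markers summed to 33.3 to 35.6 CPM in Prdm16 libraries and 0.344 to 0.506 in puro libraries, with 5 of 10 tested, all higher. These 5 had at most 10 counts over the puro group and passed the filter on low counts only through the Prdm16 group. Their shared direction was thus set by the filter. Macrophage markers summed to 8.44 to 8.66 and 14.2 to 15.4 CPM, with Emr1 and Cd163 at 0 counts in both groups. Endothelial markers summed to 9.31 to 12.2 and 3.29 to 3.78 CPM, with Cdh5 at 0, but did not move together: Tek rose (3.08 ± 0.15), Vwf fell (−2.57 ± 0.22) and Kdr did not pass (−0.13 ± 0.30). Vwf, at 29 counts over the Prdm16 group, passed the filter on low counts only through the puro group. Adipocyte markers summed to 517 to 615 CPM in Prdm16 libraries and 104 to 122 CPM in puro libraries. Nearly all of this sum was Fabp4, at 511 to 609 and 104 to 121 CPM (log2 fold change 2.26 ± 0.08). Adipoq and Cidec were also called higher but were low, with means of 2.36 and 3.46 CPM in Prdm16 libraries. Their puro means were 0.279 and 0.0895 CPM, from 28 and 9 counts over the puro group. Both passed the filter on low counts only through the Prdm16 group, so their direction was set by the filter. Plin1, Lep and Pck1 were too low to be tested, so the sum describes Fabp4 rather than the list. Erythroid markers were near absent at 0.150 to 0.276 and 0.0645 to 0.344 CPM, with Hbb-b1 at 0. In bulk RNA, fewer cells of a type and less RNA per cell cannot be told apart.

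Of the 29 tested zinc, iron, copper and metallothionein genes, 12 rose in the Prdm16 libraries, 13 fell and 4 did not pass, with p-values of edgeR's quasi-likelihood test adjusted by Benjamini-Hochberg across the 13805 tested genes. That is 86.2% called, against 75.6% of all tested genes, 37.5% of them higher and 38.0% lower. The CPM ranges of the groups did not overlap for 24 of the 29 genes, where 77.6% of all tested genes did not overlap. Of the called genes 5 moved by at least 1 on the log2 scale (21.8% of all tested genes did), and 21 of the 29 stayed under 0.5 in size, as did 8167 of the 13805 tested genes. These 5 were the metallothionein Mt2, the zinc exporters Slc30a1 and Slc30a3, the importer Slc39a10 and the iron exporter Slc40a1. Of them Slc30a3 passed the filter on low counts only through the Prdm16 group, so its direction was set by the filter. The median log2 fold change was −0.02 over the 29 genes and −0.01 over all tested genes. Log2 fold changes are given as Prdm16 over puro with their SE.

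**Figure D1:**
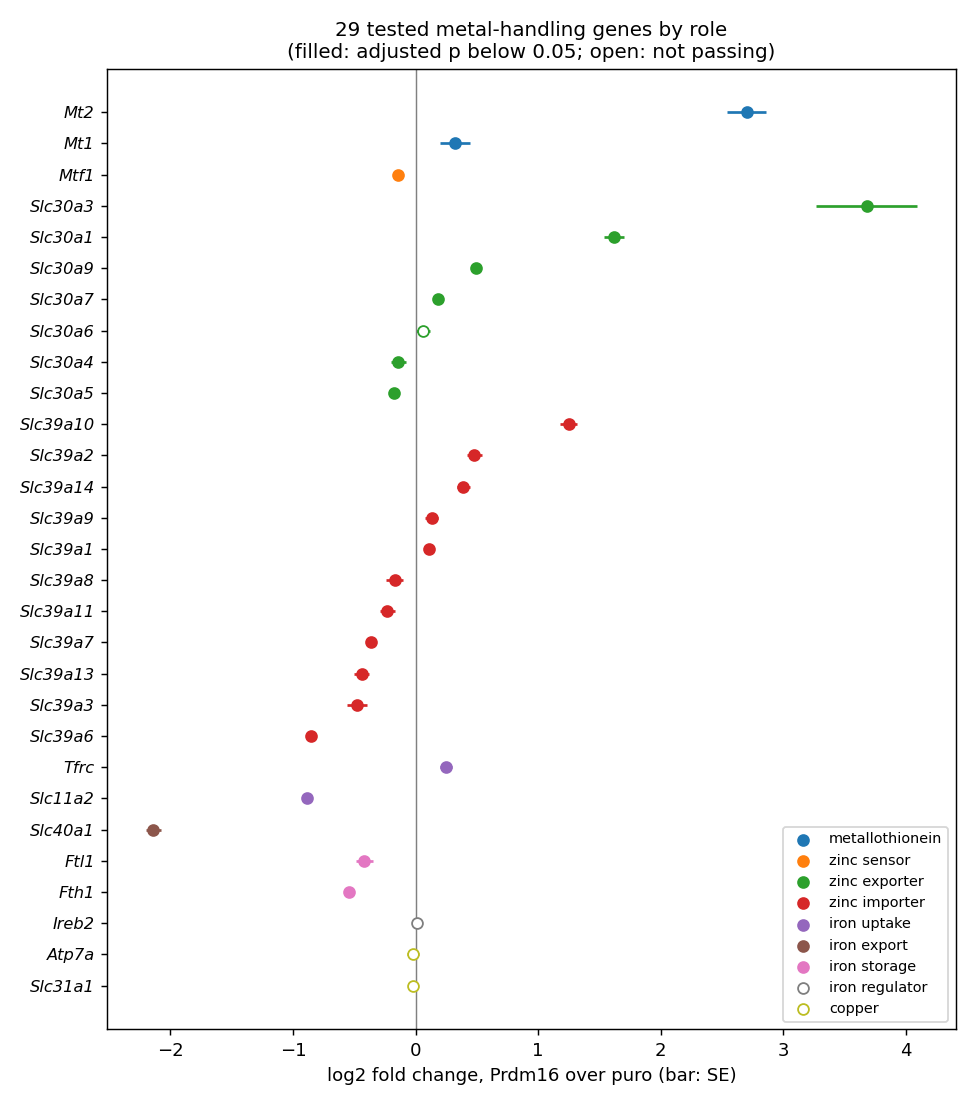
Log2 fold change (Prdm16 over puro, horizontal axis, bars SE, n = 3 libraries per group) of the 29 tested genes, arranged down the page by role and coloured by role; filled points passed an adjusted p of 0.05. Mt2 (2.70), Slc30a3 (3.68), Slc30a1 (1.62) and Slc39a10 (1.25) lie far to the right, Slc40a1 (−2.14) far to the left, and the copper transporters at 0.

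Metallothioneins are small cysteine-rich proteins that bind zinc and copper, and Mt2 had the larger fold of the 2 tested. In CPM the rises were close, at 26.9 for Mt2 (SE 4.36) and 27.4 for Mt1 (SE 17.1). Mt2 had 40.2, 25.7 and 29.3 CPM in Prdm16 libraries, against 4.90, 4.87 and 4.95 CPM in puro libraries. All Prdm16 libraries lay above all puro libraries, at a fold of 6.49 (log2 fold change 2.70 ± 0.16, edgeR adjusted p = 3.99e-08). Mt1 had 169, 114 and 130 CPM in Prdm16 libraries, against 104, 107 and 121 CPM in puro libraries, so that the groups overlapped. Its log2 fold change was 0.32 ± 0.12 (edgeR adjusted p = 0.0273). The call of Mt1 was lost without Prdm16 replicate 1, its highest library (0.15), without puro replicate 1 (0.28) and without puro replicate 2 (0.29). Over the 6 fits that left out 1 library each, its adjusted p ran between 0.00318 and 0.0839.

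The Mt1 share of Mt1 plus Mt2 counts was 80.8%, 81.7% and 81.7% in Prdm16 libraries, against 95.5%, 95.6% and 96.1% in puro libraries. This share needs no scaling between libraries and fell in every Prdm16 library, by 14.4 percentage points on average (exact permutation test, two-sided, p = 0.1, the smallest that 3 against 3 libraries can give). Per kilobase of transcript, Mt2 had a level of 62.2 ± 14.8 CPM per kb in Prdm16 libraries and 9.60 ± 0.0722 in puro libraries, and Mt1 a level of 252 ± 51.1 and 202 ± 16.96 (SD, n = 3). Mt1 was thus the more abundant of the pair in both groups. On chromosome 8 the family is arranged in the order Mt4, Mt3, Mt2, Mt1, and Mt4 and Mt3, at one end, were at or near 0: Mt3 had 1 count over the Prdm16 group and 0 over the puro group, and Mt4 had none in any library, which allows at most 0.104 CPM in the shallowest library. An annotated antisense gene, Gm45774, covers 432 of the 588 exon bases of Mt2 (73.5%). Whether reads were counted by strand is not given, so its reads and those of Mt2 cannot be told apart.

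Mtf1, the zinc-sensing activator of these genes, changed little. It was at 40.0, 40.9 and 42.5 CPM in Prdm16 libraries, against 45.1, 45.5 and 45.0 CPM in puro libraries. The groups did not overlap, and the log2 fold change was −0.14 ± 0.04 (edgeR adjusted p = 0.0106).

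The Slc30a family moves zinc out of the cytosol, either out of the cell or into vesicles. Of its 10 genes 7 were tested: 4 were higher, 2 lower and 1 did not pass, where 75.6% of all tested genes were called. The plasma membrane exporter Slc30a1 had 18.1, 16.2 and 16.6 CPM in Prdm16 libraries, against 5.51, 5.07 and 5.99 CPM in puro libraries. It was 3.07-fold higher, with no overlap between groups (log2 fold change 1.62 ± 0.08, edgeR adjusted p = 1.43e-08). Slc30a3, which loads zinc into synaptic vesicles of neurons, had 27, 23 and 30 counts in Prdm16 libraries, against 1, 1 and 4 counts in puro libraries. It stayed below 1 CPM in every library, so it was tested only through its Prdm16 counts and not at all under a filter of 1 CPM. Its summed counts stood at a ratio of 13.6, for which counting error alone gives an exact 95% range of 5.98 to 38.1. Its fitted log2 fold change was 3.68 ± 0.41 (edgeR adjusted p = 8.81e-06), and 4.59 without puro replicate 3, the library with most of its puro counts.

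The other tested exporters moved less. Slc30a9, a mitochondrial zinc transporter, had 142, 145 and 148 CPM in Prdm16 libraries, against 103, 105 and 101 CPM in puro libraries (log2 fold change 0.49 ± 0.04, edgeR adjusted p = 2.63e-07). Slc30a7 of the Golgi rose by 0.18 ± 0.04 on the log2 scale. Slc30a5 of the early secretory pathway fell by 0.18 ± 0.04 on the log2 scale. Slc30a6, with which Slc30a5 pairs, had a log2 fold change of 0.06 ± 0.06 (edgeR adjusted p = 0.398). The vesicular Slc30a4 had a log2 fold change of −0.14 ± 0.06 (edgeR adjusted p = 0.0357). That call was lost without Prdm16 replicate 1 (−0.08), puro replicate 1 (−0.11) or puro replicate 2 (−0.16), with adjusted p between 0.0235 and 0.164 over the 6 fits. Summed over the family, exporters took 491 to 517 CPM in Prdm16 libraries and 451 to 469 CPM in puro libraries, with no overlap. The mean sums were 505 and 460 CPM, and most of that difference was Slc30a9, with means of 145 and 103 CPM.

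Ordered by level per kilobase in Prdm16 libraries, the exporters ran from Slc30a5 (32.6 ± 1.07 CPM per kb) over Slc30a9 (25.4 ± 0.486), Slc30a4 (18.9 ± 1.38), Slc30a7 (13.0 ± 0.0366) and Slc30a6 (8.28 ± 0.259) to Slc30a1 (3.23 ± 0.194) and Slc30a3 (0.392 ± 0.0333). In puro libraries Slc30a4 (20.8 ± 0.879) stood above Slc30a9 (18.0 ± 0.323), and the order was otherwise the same. Neighbours in both orders were apart by more than 1 SD of each. The other 3 genes were too low to be tested: Slc30a2, a transporter of mammary secretory vesicles, had 1 count over each group, and Slc30a8, of insulin granules, and Slc30a10, a manganese exporter, had none.

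**Figure D2:**
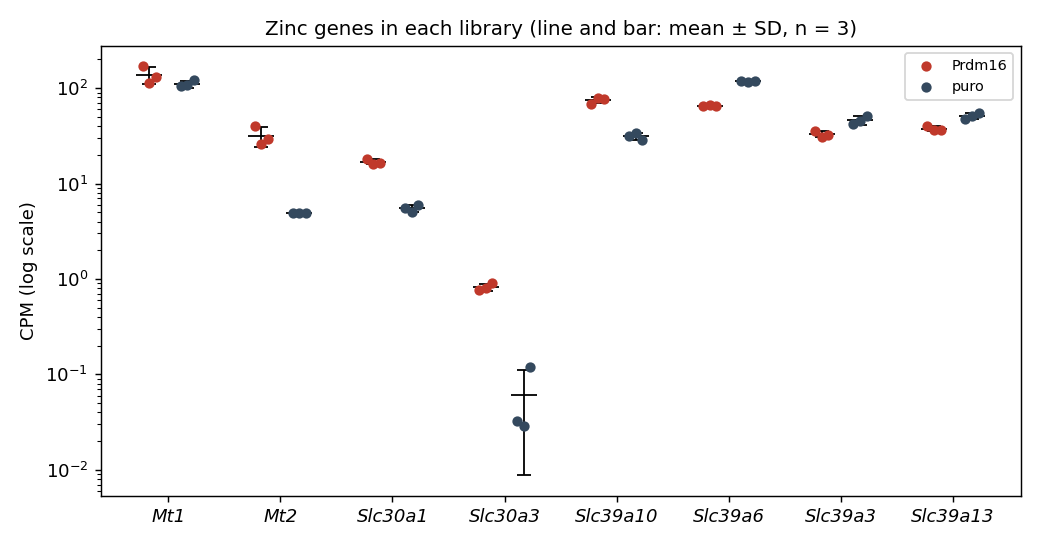
CPM on a log axis of 8 zinc genes in each library, Prdm16 libraries on the left of each pair and puro libraries on the right, with mean and SD (n = 3). The groups overlap for Mt1 and are apart for the others; Slc30a3 lies below 1 CPM throughout.

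The Slc39a family brings zinc into the cytosol. Of its 14 genes 11 were tested, and 5 were higher and 6 lower, where 75.6% of all tested genes were called. Slc39a10 and Slc39a6, close relatives that form a complex at the plasma membrane, moved in opposite directions. Slc39a10 had 68.3, 78.7 and 77.2 CPM in Prdm16 libraries, against 31.7, 33.8 and 28.8 CPM in puro libraries (log2 fold change 1.25 ± 0.07, edgeR adjusted p = 2.01e-08). Slc39a6 had 64.4, 66.6 and 64.9 CPM in Prdm16 libraries, against 119, 116 and 118 CPM in puro libraries (log2 fold change −0.85 ± 0.04, edgeR adjusted p = 2.82e-09). Neither pair of groups overlapped. Per kilobase, the level of Slc39a10 was 13.6 ± 1.03 and that of Slc39a6 16.8 ± 0.296 CPM per kb in Prdm16 libraries, against 5.72 ± 0.454 and 30.3 ± 0.362 in puro libraries, so that the distance between them narrowed.

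The most abundant importers shifted little or fell. Slc39a7, which releases zinc from the endoplasmic reticulum, had 143, 133 and 142 CPM in Prdm16 libraries, against 175, 176 and 186 CPM in puro libraries (log2 fold change −0.36 ± 0.04, edgeR adjusted p = 1.26e-05). Slc39a13, a vesicular transporter needed in connective tissue, had a log2 fold change of −0.44 ± 0.06, the plasma membrane importer Slc39a3 of −0.48 ± 0.08 and Slc39a11 of −0.23 ± 0.06, all past the threshold with no overlap. Slc39a1, a broadly expressed plasma membrane importer, had a log2 fold change of 0.11 ± 0.04 (edgeR adjusted p = 0.0273). Its call was lost without Prdm16 replicate 1 (0.09) or 3 (0.11) and without puro replicate 1 (0.12) or 2 (0.09), with adjusted p between 0.0115 and 0.124 over the 6 fits. Slc39a9 of the Golgi had 0.13 ± 0.05 (edgeR adjusted p = 0.0195), lost without Prdm16 replicate 2 (0.10), puro replicate 2 (0.12) or puro replicate 3 (0.11), with adjusted p between 0.00989 and 0.0708. Slc39a8, which also carries manganese and iron, had −0.17 ± 0.07 (edgeR adjusted p = 0.0453), a call that held in 1 of the 6 fits, without puro replicate 2 (−0.22). Without the other libraries in turn it ran between −0.19 and −0.13, the last without puro replicate 1, with adjusted p up to 0.157. An annotated transcript on the same strand, Gm20427, covers 80.7% of the exon bases of Slc39a7 and is not a row of the table, so how its reads were counted is not known.

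Slc39a14 and Slc39a2 both lie on chromosome 14 and both rose. Slc39a14, which carries zinc and iron, had 51.6, 55.9 and 51.2 CPM in Prdm16 libraries, against 41.4, 40.9 and 39.0 CPM in puro libraries (log2 fold change 0.39 ± 0.05, edgeR adjusted p = 1.95e-05). Slc39a2, a plasma membrane importer, had 23.6, 23.4 and 21.6 CPM in Prdm16 libraries, against 16.4, 16.2 and 16.6 CPM in puro libraries (log2 fold change 0.48 ± 0.06, edgeR adjusted p = 1.76e-05). The 436 tested genes of chromosome 14 had a median log2 fold change of 0.49. With that median removed the values were −0.10 for Slc39a14 (adjusted p = 0.0706) and −0.01 for Slc39a2 (adjusted p = 0.831), so neither stood above its chromosome. Slc39a2 also shares 151 of its 3447 exon bases with Mettl17 on the same strand, a gene with a log2 fold change of 0.49 ± 0.08.

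The 3 remaining importers were too low to be tested. Slc39a4, the importer of the gut epithelium, had 24 counts over the Prdm16 group and 19 over the puro group, a ratio of 1.29 (exact 95% range for counting error 0.676 to 2.49). No difference was detectable at this depth, in libraries whose epithelial markers differed as given above. Slc39a5 had 2 counts over each group, and Slc39a12 had 0 over the Prdm16 group and 1 over the puro group. Summed over the family, importers took 654 to 665 CPM in Prdm16 libraries and 693 to 717 CPM in puro libraries, with no overlap. Per kilobase, Slc39a1 (60.3 ± 2.44 CPM per kb) and Slc39a7 (60.1 ± 2.32) led in Prdm16 libraries and did not differ beyond their SD, whereas in puro libraries Slc39a7 (77.2 ± 2.76) stood above Slc39a1 (55.8 ± 1.36). The lowest tested importer was Slc39a8 in both groups, at 3.39 ± 0.0914 and 3.82 ± 0.243 CPM per kb.

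Iron genes fell at export and storage and split at uptake. Ferroportin, Slc40a1, the only known iron exporter of mammalian cells, had 17.1, 15.4 and 15.1 CPM in Prdm16 libraries, against 74.1, 70.8 and 65.9 CPM in puro libraries. It was 4.42-fold lower with no overlap (log2 fold change −2.14 ± 0.06, edgeR adjusted p = 1.10e-10). Ferroportin is also a gene of iron-recycling macrophages, and among the 3 tested macrophage markers Lyz2 and Cd14 fell. Lyz2 had 3 counts over the Prdm16 group and 146 over the puro group, so it passed the filter on low counts only through the puro group. Cd14 had a log2 fold change of −1.31 ± 0.09. The third, Cd68, did not pass, at 450 and 384 counts over the Prdm16 and puro groups (log2 fold change 0.26 ± 0.11, edgeR adjusted p = 0.0521). Emr1 and Cd163 were at 0 in both groups and Ptprc had 7 and 0 counts over the Prdm16 and puro groups. The part of these cells in the fall of Slc40a1 was not tested.

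The ferritin chains were the most abundant genes of the set. Fth1, the heavy chain that oxidises iron, had 1038, 1011 and 1017 CPM in Prdm16 libraries, against 1470, 1472 and 1507 CPM in puro libraries (log2 fold change −0.54 ± 0.03, edgeR adjusted p = 4.82e-08). Ftl1, the light chain that promotes the mineral core, had 1088, 884 and 1060 CPM in Prdm16 libraries, against 1298, 1339 and 1426 CPM in puro libraries (log2 fold change −0.42 ± 0.07, edgeR adjusted p = 2.04e-04). Every Prdm16 library was below every puro library for both chains. The balance of the chains held no such difference: Fth1 made up 48.8%, 53.3% and 49.0% of ferritin counts in Prdm16 libraries, against 53.1%, 52.4% and 51.4% in puro libraries (exact permutation test, two-sided, p = 0.4, smallest possible 0.1). Processed pseudogenes of both chains are annotated and none is a row of the table, and how reads shared with them were counted is not given, so both levels are uncertain. Fth1 fell while the tested genes of its chromosome, 19, had a median log2 fold change of 0.39, and its value with that median removed was −0.93.

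At uptake, Tfrc and Slc11a2 went apart. The transferrin receptor Tfrc had 127, 133 and 124 CPM in Prdm16 libraries, against 114, 104 and 103 CPM in puro libraries (log2 fold change 0.25 ± 0.05, edgeR adjusted p = 6.03e-04). Slc11a2, the endosomal iron transporter, had 65.2, 65.6 and 66.1 CPM in Prdm16 libraries, against 123, 127 and 115 CPM in puro libraries (log2 fold change −0.89 ± 0.04, edgeR adjusted p = 8.03e-09). Neither pair of groups overlapped. Per kilobase Tfrc (26.2 ± 0.935 CPM per kb) stood above Slc11a2 (21.7 ± 0.149) in Prdm16 libraries and below it in puro libraries (21.9 ± 1.27 and 40.3 ± 1.97). Of the 4 genes whose hairpins are printed above, the 3 with a match in the 5′ UTR fell and Tfrc, with its matches in the 3′ UTR, rose. Slc11a2, which fell, held no match in this form. Neither did Epas1 of a further list below, which rose (log2 fold change 2.05 ± 0.05). The search required all 5 stem bases to pair, so hairpins of a looser form would be missed. A part of the hairpins in these directions was not tested. Ireb2, an iron-regulatory protein, was at 178, 188 and 184 CPM in Prdm16 libraries, against 190, 185 and 172 CPM in puro libraries, with a log2 fold change of 0.01 ± 0.04 (edgeR adjusted p = 0.860).

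**Figure D3:**
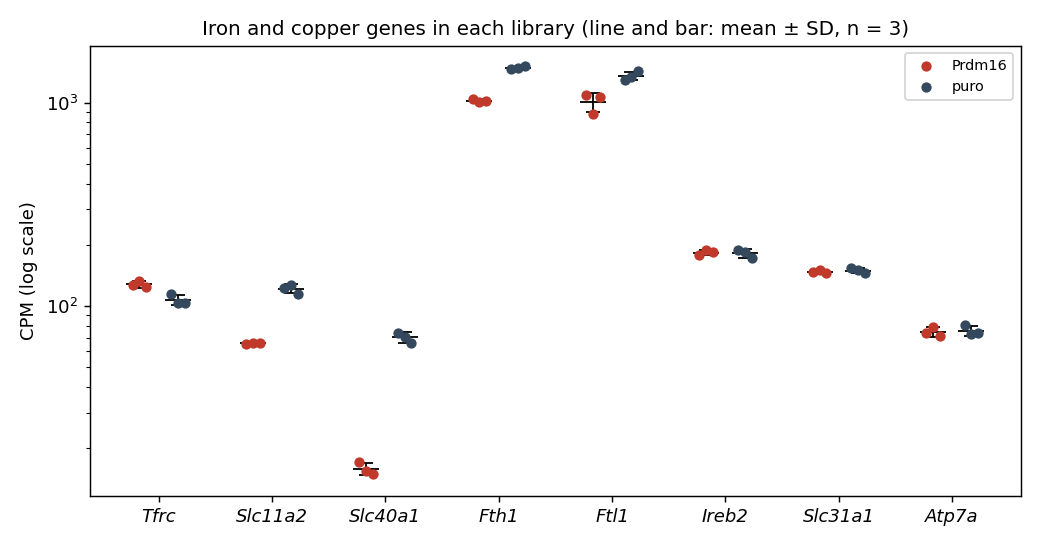
CPM on a log axis of 6 iron genes and 2 copper transporters in each library, Prdm16 libraries on the left of each pair and puro libraries on the right, with mean and SD (n = 3). Slc40a1, Slc11a2, Fth1 and Ftl1 are lower in Prdm16 libraries, Tfrc is higher, and Ireb2, Slc31a1 and Atp7a overlap.

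Copper transporters were near level. Slc31a1, the copper importer, had 147, 151 and 146 CPM in Prdm16 libraries, against 153, 151 and 145 CPM in puro libraries (log2 fold change −0.02 ± 0.04, edgeR adjusted p = 0.662). Atp7a, the copper-exporting pump, had 73.7, 79.0 and 71.6 CPM in Prdm16 libraries, against 80.8, 72.7 and 73.7 CPM in puro libraries (log2 fold change −0.02 ± 0.05, edgeR adjusted p = 0.757). The groups overlapped for both.

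Genes on some chromosomes moved together in this comparison, and this touched several metal genes. Median log2 fold changes of tested genes ran from −0.39 on chromosome 18 and −0.37 on chromosome 15 to 0.39 on chromosome 19 and 0.49 on chromosome 14. Slc39a6 lies on chromosome 18 and Slc11a2 on chromosome 15, and with the medians removed they had −0.46 and −0.52, both still past the threshold (adjusted p = 6.11e-07 and 9.30e-07). The 5 genes with the largest changes kept values of 3.51 (Slc30a3), 2.58 (Mt2), 1.60 (Slc30a1), 1.22 (Slc39a10) and −2.17 (Slc40a1). Mt1 lost its call (0.20, adjusted p = 0.139), Slc39a8 was at 0.02 (adjusted p = 0.833), and Ireb2 was called higher (0.12, adjusted p = 0.0263).

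**Figure D4:**
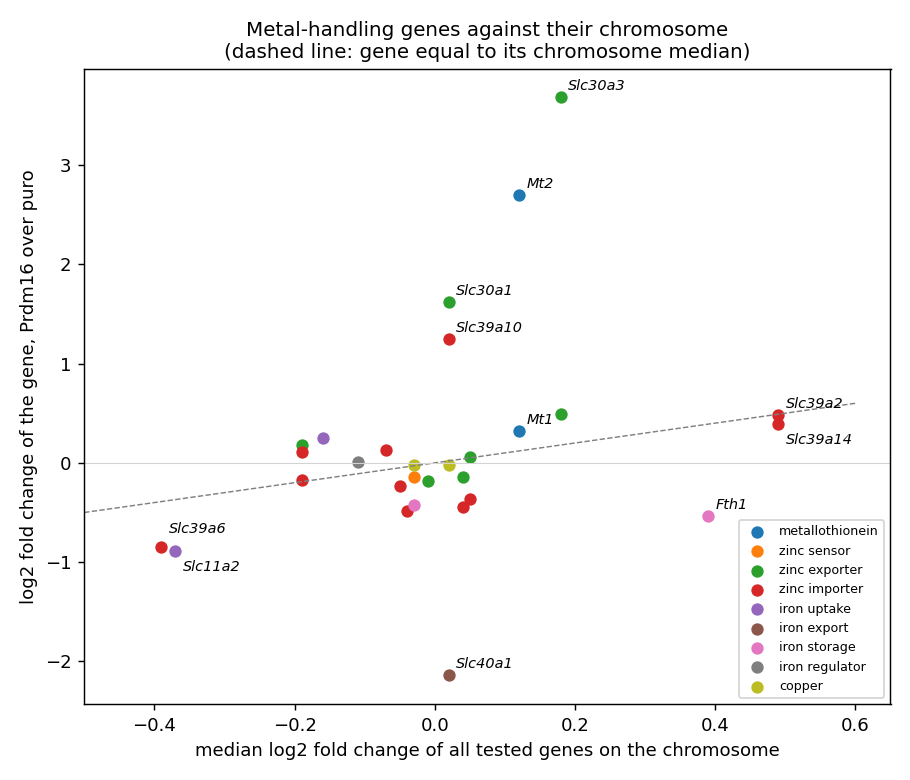
Log2 fold change of each tested metal gene (vertical axis) against the median log2 fold change of all tested genes on its chromosome (horizontal axis), coloured by role. Slc39a2 and Slc39a14 lie at or just under the dashed line of equality at 0.49, while Mt2, Slc30a1, Slc30a3, Slc39a10 and Slc40a1 lie far from it.

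Other genes of metal handling, in 4 lists, were counted beside these. The counts of each list stand against 75.6% of all tested genes called, 37.5% higher and 38.0% lower. In the list of iron uptake, export and its regulation 19 genes were tested, with 7 higher, 8 lower and 4 not passing. Ceruloplasmin, Cp, a secreted copper enzyme that oxidises exported iron, had 475, 480 and 461 CPM in Prdm16 libraries, against 123, 116 and 114 CPM in puro libraries (4.01-fold higher, SE 0.04 on the log2 scale, edgeR adjusted p = 5.38e-12). Its membrane-bound relative hephaestin, Heph, had 53.5, 57.3 and 56.9 CPM in Prdm16 libraries, against 222, 218 and 197 CPM in puro libraries (log2 fold change −1.93 ± 0.05, edgeR adjusted p = 6.61e-11). The ferroxidases thus moved in opposite directions. Aco1, which acts as an iron-regulatory protein when it lacks its iron-sulfur cluster, rose by 0.78 ± 0.04 on the log2 scale, and the metal reductase Steap2 had a log2 fold change of −1.82 ± 0.06.

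Mitochondrial iron, heme and iron-sulfur genes moved by small amounts in both directions. Of 24 tested 11 were higher, 8 lower and 5 did not pass. None reached a log2 change of 1, where 21.8% of all tested genes were called with such a change. Nfs1, the sulfur donor of iron-sulfur clusters, rose by 0.67 ± 0.04, and Alad, an early enzyme of heme synthesis, by 0.52 ± 0.04. Alas1, the first enzyme of heme synthesis, had a log2 fold change of −0.58 ± 0.04, and Fech, the last, of −0.57 ± 0.04, or −0.18 with the median of chromosome 18 removed.

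Among 12 copper genes 5 were higher, 5 lower and 2 did not pass. The extracellular superoxide dismutase Sod3, a copper and zinc enzyme, had 6.36, 6.46 and 7.01 CPM in Prdm16 libraries, against 60.9, 63.9 and 60.0 CPM in puro libraries (log2 fold change −3.22 ± 0.06, edgeR adjusted p = 2.95e-12). The copper pump Atp7b, a relative of Atp7a best known from liver, had 94 counts over the Prdm16 group and 6 over the puro group, a ratio of 16 (exact 95% range for counting error 7.07 to 44.6). It passed the filter on low counts only through the Prdm16 group. Ccs, the copper chaperone of Sod1, rose by 0.55 ± 0.05, or by 0.16 with the median of chromosome 19 removed. Cox17, the copper chaperone of cytochrome oxidase, had a log2 fold change of −0.45 ± 0.09, or −0.29 with the median of chromosome 16 removed. With chromosome medians removed 6 of the 12 copper genes passed, against 10 otherwise.

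The last list held zinc and metal stress regulators and their targets, with 4 higher and 4 lower of 8 tested. Epas1, a hypoxia-inducible factor that switches on Slc11a2 and Slc40a1 in the gut, had 86.9, 84.6 and 86.1 CPM in Prdm16 libraries, against 19.9 to 22.1 CPM in puro libraries (log2 fold change 2.05 ± 0.05, edgeR adjusted p = 2.05e-11). Its relative Hif1a, an inducer of Tfrc, moved the other way, with a log2 fold change of −1.06 ± 0.05. Gclc, the rate-limiting enzyme of glutathione synthesis, rose by 0.78 ± 0.04 and the stress regulator Nfe2l1 had −0.47 ± 0.03. All lists held genes called in both directions.

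**Figure D5:**
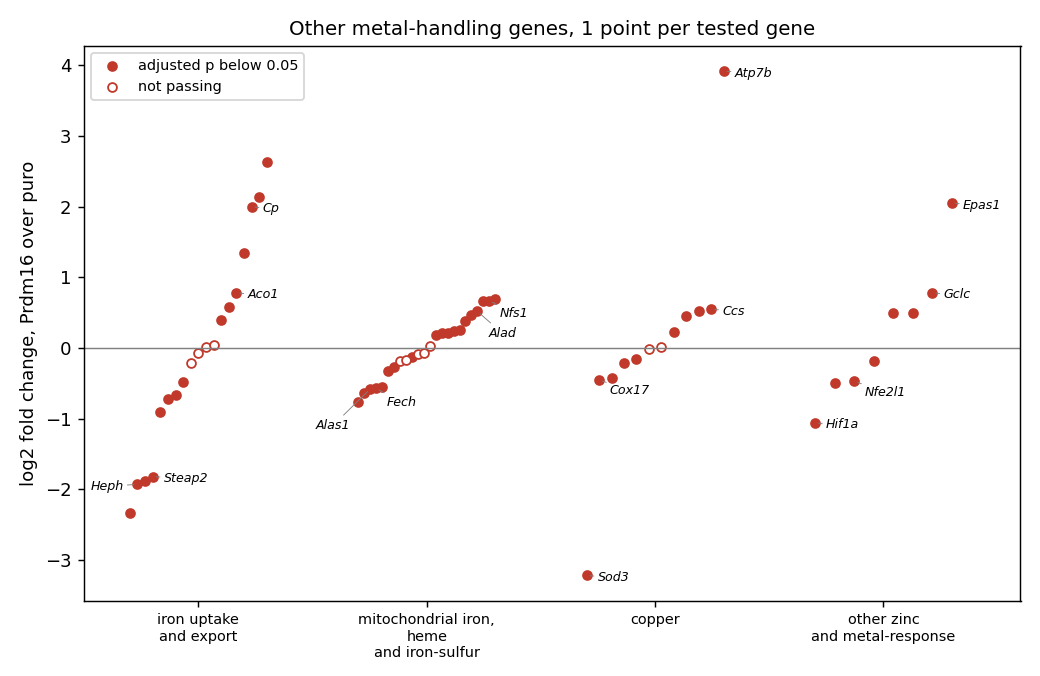
Log2 fold change (Prdm16 over puro, vertical axis) of each tested gene of 4 further metal-handling lists, 1 point per gene, filled where the adjusted p was below 0.05. Each list spreads to both sides of 0, from Sod3 (−3.22) to Atp7b (3.92), and the mitochondrial list stays within 1 of 0.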

How the data were processed

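The authors deposited raw counts per gene symbol for 6 libraries of polyadenylated RNA, with no normalization. The submitters' processing notes name STAR, featureCounts, Subread and the build mm9. Tool versions, strand setting and treatment of multi-mapped reads: not given in the sources used here. Library totals are given in the report, and the upper limit for a gene at 0, taken as 3 counts, was 0.0852 to 0.104 CPM. Replicates differed by more than sampling noise (chi-square per gene 2.08 to 8.85), and each counted as 1.

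Groups came from the sample titles. Counts were fitted with edgeR 4.0.16 (R 4.3.3): filterByExpr, which left 13805 of 24197 genes, TMM scaling and a two-sided quasi-likelihood test with Benjamini-Hochberg adjustment at 0.05. The fit was tested on simulated data. Transcript lengths (the principal coding transcript), chromosomes and overlaps came from GENCODE M21 (GRCm38), which is not the authors' build, so coordinates of sequences do not apply to the counting. The members and lists were chosen with earlier results of these data known. All 37 members are named, and from each further list up to 2 higher and 2 lower genes with the smallest p. Markers and genes sharing exons with members were also named. Alternatives were other scalings and filters, DESeq2 1.42.0, limma-voom (limma 3.58.1), a replicate block, each library left out, Prdm16 left out, other thresholds and prior counts, and chromosome medians removed.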

Additional observations from a re-analysis of the deposited data

How the results depend on the processing

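Over the alternatives, 9192 to 11149 genes and 19 to 25 of the 29 tested metal genes were called, against 10430 and 25 in the reported fit, and 424 of 463 values of single metal genes kept their direction and their side of the threshold. For 19 of the 29 genes every such alternative did so. The stricter adjusted p of 0.01 entered only the totals of genes called, not these values of single genes. Mtf1, among the 19, had an adjusted p of 0.0106 in edgeR's test and was not called at 0.01. The prior count of 0.5 changed no p-value, so its 29 values kept their side of the threshold by construction. Of the 25 called genes 20 were called in all 6 fits that left out 1 library, and Slc30a4, Slc39a1, Slc39a8, Slc39a9 and Mt1 were not. With chromosome medians removed Slc39a2 (−0.01), Slc39a14 (−0.10), Slc39a8 (0.02) and Slc31a1 (0.02) changed sign, and 6 copper genes of the further list passed in place of 10; the alternative subtracts the chromosome median by construction. Genes near 0 changed sign elsewhere: Ireb2 to −0.01 under upper-quartile scaling (where Slc39a1 also lost its call, at 0.09) and between −0.03 and 0.04 with 1 library left out, Atp7a to 0.00 without a filter and between −0.06 and 0.03 with 1 library left out, and Slc31a1 to 0.00 without a filter. DESeq2 did not call Mt1 (adjusted p = 0.0961) or Slc39a8 (adjusted p = 0.130), with adjusted p over the library-out fits between 0.00318 and 0.0839 for Mt1 and between 0.0276 and 0.157 for Slc39a8. With 1 library left out, the Mt1 share differed by −14.5 to −14.1 percentage points (Prdm16 minus puro) and the Fth1 share by −3.39 to −1.13. The replicate numbers did not pair the libraries: same-numbered libraries correlated at −0.16, 0.10 and −0.07 in their deviations from the group means, and not every library correlated best with its own number. A replicate block gave 10089 genes and 23 metal genes called, without Slc30a4 and Slc39a8. The cause of these differences was not tested. Depth limits the 8 untested genes, which had at most 24 counts over a group.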

Other observations

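Metal genes as a whole took 0.424%, 0.398% and 0.415% of the counts in Prdm16 libraries, against 0.469%, 0.471% and 0.484% in puro libraries. Ferritin alone took 1890 to 2130 CPM in Prdm16 libraries and 2770 to 2930 CPM in puro libraries. The sums of the other roles went both ways. Metallothioneins had mean sums of 170 and 116 CPM in Prdm16 and puro libraries, and zinc exporters 505 and 460. Zinc importers had 658 and 702, iron uptake 194 and 229, and iron export 15.9 and 70.3.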
